A study of Mus musculus with 4 samples.

Results

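The 9 genes described here encode cytokines and chemokines that stressed and senescent fibroblasts are known to secrete: Cxcl1, Cxcl5 and Cxcl12 (CXC chemokines), Ccl2 and Ccl7 (CC chemokines), Csf1 (a macrophage growth factor), and Il6, Il11 and Lif (cytokines of the interleukin-6 family). They were taken by symbol, with no threshold on their values, and each matched 1 of the 47937 genes in the deposited table of read counts. The study measured total RNA of mouse embryonic fibroblasts (MEFs), which are cells grown from the connective tissue of mouse embryos, by RNA sequencing after depletion of ribosomal RNA. One group was untreated and the other received 50 µM genistein, a soy isoflavone that inhibits tyrosine kinases and DNA topoisomerase II, for 24 h, with 2 libraries per group. The libraries held 28591958 to 31464284 counts over genes and repeats. The labels give the control libraries as wild-type, name no second agent in either group, and enter the treatment of the treated libraries in the genotype field, so that the genotype of the treated cells is not stated there. They call the control cells untreated, whereas the study's figure legends describe control cells as given the solvent DMSO alone, so that whether these 2 control libraries received solvent is not settled by the sources used here. The age of the embryos, the passage of the cells and whether the 2 libraries of a group came from separate cultures are also not given, and the p-values therefore measure the spread between these libraries, which may be technical.

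Chemokines are small secreted proteins that bind G protein-coupled receptors and draw leukocytes along a gradient. Fibroblasts are a main tissue source of them, and transcription of Cxcl1, Ccl2 and Il6 is known to be induced through NF-κB, AP-1 and C/EBP factors after exposure to interleukin-1, TNF, bacterial products or DNA damage. Many of these mRNAs carry AU-rich elements in the 3′ untranslated region, which bind proteins that speed or slow decay of the transcript. Cxcl12 is known as a chemokine that mesenchymal cells make constitutively.

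The promoter of Cxcl1 is shown because this gene had the largest change among the 7 of the 9 genes with enough counts to be tested. Promoter windows from RefSeq (assembly GRCm38.p6) ran from 250 bases before to 50 bases after an annotated start. They were found for 6 of the 9 genes, namely Cxcl1, Cxcl12, Csf1, Il6, Il11 and Lif, with 2 windows for Il11. The NF-κB-type motif GGNNTTTCC, searched on both strands, was in the windows of Cxcl1, Csf1 and Il6, and in 5.82% of the 32851 windows in the table. The 250 bases before the Cxcl1 start (chr5:90890995-90891244, plus strand) are given first, with both matches in capitals, and the last 4 of them lie within the first exon of the GENCODE model. The matches of the 3 genes follow with 10 bases on each side, read in the direction of transcription and with the match in capitals.
Cxcl1, 250 bases before the start: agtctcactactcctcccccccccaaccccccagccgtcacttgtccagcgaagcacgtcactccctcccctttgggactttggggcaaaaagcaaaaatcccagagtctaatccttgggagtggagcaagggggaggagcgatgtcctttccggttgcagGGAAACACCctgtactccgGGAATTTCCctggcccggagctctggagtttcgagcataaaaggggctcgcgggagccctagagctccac
Cxcl1, chr5:90891146-90891174, plus strand: ccggttgcagGGAAACACCctgtactccg
Cxcl1, chr5:90891165-90891193, plus strand: ctgtactccgGGAATTTCCctggcccgga
Csf1, chr3:107760605-107760633, minus strand: gggccttgagGGAAAGTCCctaggggcca
Il6, chr5:30013061-30013089, plus strand: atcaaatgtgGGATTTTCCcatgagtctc
Cxcl1 was the member with 2 matches, starting 89 and 70 bases before its start. The AP-1 motif TGANTCA, present in 7.81% of all windows, was in those of Il6, Il11 and Lif. For Il11 it was only in the window whose upstream part lies inside the gene model (chr7:4778142-4778391, minus strand). The C/EBP motif TTGCNNAA, present in 10.8% of windows, was in that of Il6. Neither the STAT motif TTCNNNGAA (8.3% of windows) nor TATAAA (13.6%) was in any of the 6, and none of the 5 motifs was in the Cxcl12 window. A match gives the letters only and not binding.

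The AU-rich nonamer TTATTTATT was found in Cxcl1, Lif and Il11. In the GENCODE M21 transcript with the longest 3′ untranslated region, it occurred 2 times in Cxcl1 (592 bases), 2 times in Lif (3180 bases) and 5 times in Il11 (1194 bases), and 0 times in the other 6 genes. Of 12068 tested genes with such a region, 8.32% held the nonamer. The sites of Cxcl1 and Lif, which fell most and which rose among the 7 tested genes, are given with 10 bases on each side on build GRCm38, with the nonamer in capitals.
Cxcl1, chr5:90892615-90892643, plus strand: atttatgtatTTATTTATTccacaaagtg
Cxcl1, chr5:90892908-90892936, plus strand: agaatgtcagTTATTTATTgaaagtcgtc
Lif, chr11:4272039-4272067, plus strand: aaaggggcctTTATTTATTatttaaaact
Lif, chr11:4272402-4272430, plus strand: cagattatttTTATTTATTcaatgtcata
The shorter pentamer ATTTA was most dense in Cxcl1, at 11.82 per kb, and least dense in Cxcl12, at 0.77 per kb, against 1.82 per kb over all these regions together. Il6 carried 10 pentamers and 0 nonamers in 1668 bases.

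The abundant chemokine transcripts were lower after genistein, whereas neither Il6 nor Lif fell by the test. Of the 9 genes, 7 had enough counts to be tested, and 5 of these fell (Cxcl1, Ccl2, Cxcl12, Csf1 and Ccl7), 1 rose (Lif) and 1 passed in neither direction (Il6) at an adjusted p under 0.05 in edgeR's quasi-likelihood test. The calls on Ccl7 and Lif were lost under some alternatives, given beside each gene. Genistein changed most of the transcriptome by this test: 71.7% of the 16240 genes tested passed, 38.2% as lower and 33.5% as higher, and the median log2 fold change was -0.03. With the study's thresholds (adjusted p under 0.05, a change beyond 1 on the log2 scale in either direction, and over 100 normalized counts on average), 4.16% of genes were lower and 3.92% higher, and of the 9 genes Cxcl1 was lower and 0 were higher. Both genistein libraries lay below both untreated libraries for 6 of the 9 genes (the 5 that fell and Cxcl5) and above them for 1. The same held for 44.6% and 40.7% of genes tested, a background of genes with enough counts, which Cxcl5 and Il11 did not have. Here and throughout, a normalized count is a count scaled by TMM factors to a library of mean size, and log2 fold changes are genistein against untreated. In bulk RNA, fewer cells making a transcript and less of it in each cell cannot be told apart.

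**Figure D1:**
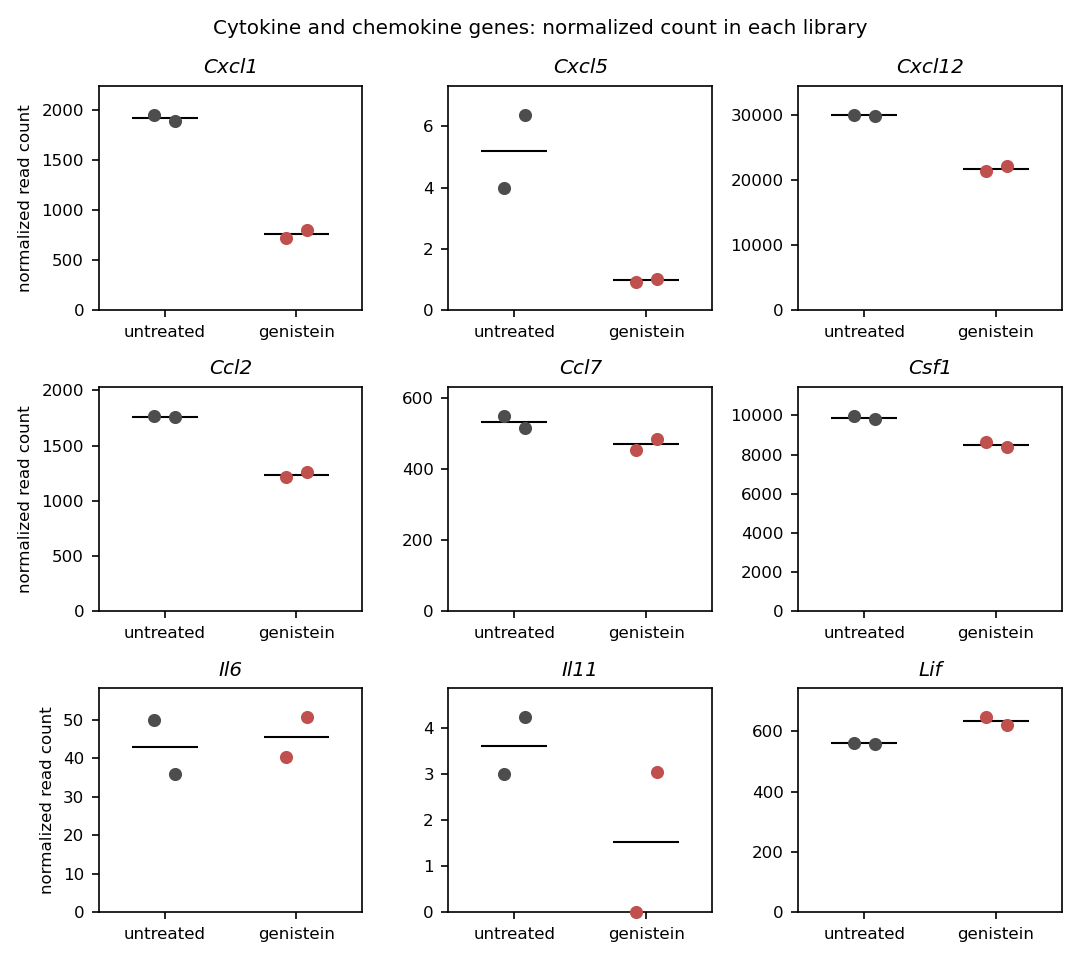
Normalized read counts of the 9 genes in each library, one panel per gene, with the untreated and genistein libraries as points and the group mean as a bar. Cxcl1 fell from 1949 and 1888 to 726 and 805, Lif was the 1 gene with both genistein libraries above both untreated ones, and the groups of Il6 and Il11 overlapped.

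Cxcl1, which binds Cxcr2 and attracts neutrophils, had the largest difference of the 7 genes tested. It had 1949 and 1888 normalized counts in untreated cells and 726 and 805 in genistein-treated cells. The groups were far apart relative to the spread within either of them, with means of 1918 ± 43.4 and 765 ± 55.8 (SD, n = 2). The level fell by 60.2%, a log2 fold change of -1.33 ± 0.05 (SE; 95% interval -1.44 to -1.21; adjusted p = 2.9e-12, edgeR), and 2.84% of the genes tested had a lower log2 fold change. Over all alternatives, the log2 fold change of Cxcl1 ran from -1.40 to -1.25 and it passed the threshold in each.

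Cxcl12, the ligand of Cxcr4 and of the scavenging receptor Ackr3, was by far the most abundant of the 9. It had 29924 and 29877 normalized counts without genistein and 21314 and 22191 with it. Both treated libraries were lower and the groups did not overlap, with means of 29901 ± 32.7 and 21753 ± 620 (SD, n = 2). Its log2 fold change was -0.46 ± 0.05 (SE; 95% interval -0.56 to -0.36; adjusted p = 1.6e-07, edgeR), which is 0.727 times the untreated level. The 95% interval of Cxcl1 lay wholly below that of Cxcl12.

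Cxcl5, another Cxcr2 ligand, was near the detection limit. It had 4 and 6 raw counts without genistein and 1 and 1 with it. Both treated libraries were below both untreated ones, but these counts fell under the filter for low counts and were not tested in the fit described here. Summed over libraries and corrected for depth, 2 counts stood against 10, a ratio of 0.189 with an exact conditional 95% interval of 0.0202 to 0.889, which covers counting error only. Without the filter, edgeR gave an adjusted p of 0.073.

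Cxcl5 and Cxcl1 lie in the same CXC chemokine cluster on chromosome 5 (build GRCm38), at chr5:90759360-90761624 and chr5:90891241-90893115, both on the plus strand and 129.6 kb apart. Elsewhere in that cluster, Cxcl2, a close relative of Cxcl1, had 0 counts in all 4 libraries. Cxcl3 had 1 count in 1 untreated library. Cxcl15 had 31 and 33 counts in untreated and 30 and 31 in genistein libraries.

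Ccl2 and Ccl7 both bind Ccr2 and recruit monocytes, and their genes are neighbours, 8.3 kb apart on the plus strand of chromosome 11 (chr11:82035571-82037453 and chr11:82045712-82047525). Ccl2 had 1766 and 1760 normalized counts in untreated cells and 1215 and 1262 in genistein-treated cells. The untreated pair were nearly equal and both treated libraries lay below them. The log2 fold change was -0.51 ± 0.05 (SE; 95% interval -0.61 to -0.41; adjusted p = 3.7e-08, edgeR), that is 0.702 times the untreated level. The Ccl2 model overlaps Gm17268 on the opposite strand, which had 4 counts over the 4 libraries against 5973 for Ccl2.

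Ccl7 had 547 and 515 normalized counts without genistein and 452 and 485 with it. Both treated libraries were lower, but the gap between the groups was close to the spread within each of them (means 531 ± 23.3 and 468 ± 23.2, SD, n = 2). The log2 fold change was -0.18 ± 0.07 (SE; 95% interval -0.33 to -0.03; adjusted p = 0.028, edgeR), and 40.4% of the genes tested had a lower one. The call was lost with scaling by library totals (-0.11, adjusted p = 0.17), with TMM factors from genes alone (-0.14, adjusted p = 0.085), with DESeq2 (-0.21, adjusted p = 0.17), without untreated replicate 1 (-0.14, adjusted p = 0.19) and without genistein replicate 1 (-0.13, adjusted p = 0.17). The 95% intervals of Ccl2 and Ccl7 did not overlap. Per exon length, Ccl2 stood at 2.27 and 2.41 times Ccl7 in the untreated libraries and at 1.89 and 1.83 times in the treated ones. The other chemokine genes of the cluster were almost silent, with 0 to 2 counts per library for Ccl8, Ccl1 and Ccl12, and for Ccl11 8 and 6 counts in untreated and 3 and 3 in treated libraries.

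Csf1, the factor that macrophages need for survival and growth, was second to Cxcl12 in level. It had 9957 and 9801 normalized counts in untreated and 8636 and 8389 in genistein libraries. Both treated libraries were lower and the groups did not overlap. The log2 fold change was -0.21 ± 0.04 (SE; 95% interval -0.30 to -0.13; adjusted p = 0.00024, edgeR), or 0.862 times the untreated level, and it ran from -0.24 to -0.15 over the alternatives with the threshold passed in each. With this precision, 38.3% of the genes tested had a lower log2 fold change than Csf1.

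Il6, Il11 and Lif all signal through the shared receptor chain gp130 (gene Il6st). Of these, Lif and Il6 were tested and neither fell. Lif, which acts through Lifr and gp130 and keeps mouse embryonic stem cells undifferentiated, had 561 and 558 normalized counts without genistein and 646 and 621 with it. Both treated libraries were above both untreated ones. The log2 fold change was 0.18 ± 0.06 (SE; 95% interval 0.05 to 0.31; adjusted p = 0.016, edgeR), or 1.13 times the untreated level. The call was lost without a filter on low counts (0.15, adjusted p = 0.057), with DESeq2 (0.16, adjusted p = 0.26), without untreated replicate 1 (0.18, adjusted p = 0.065), without untreated replicate 2 (0.17, adjusted p = 0.072) and without genistein replicate 1 (0.16, adjusted p = 0.064).

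Il6, the acute inflammatory member and a prominent component of the senescent secretome, was expressed at a low level. It had 49.9 and 36.0 normalized counts in untreated and 40.3 and 50.6 in treated libraries. The groups overlapped, with the highest and the lowest untreated values enclosing 1 of the treated ones. The log2 fold change was 0.07 ± 0.23 (SE; adjusted p = 0.79, edgeR), and the 95% interval from 0.751 to 1.47 times the untreated level leaves room for a change in either direction. The sign turned without untreated replicate 2 (-0.15) and without genistein replicate 2 (-0.10).

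Il11, a gp130 cytokine made by stromal cells, had 3 and 4 raw counts in untreated and 0 and 3 in treated libraries. The groups overlapped and the counts were under the filter. The ratio of the summed counts, 3 against 7 and corrected for depth, was 0.406 with an exact conditional 95% interval of 0.0677 to 1.78. A change in Il11 was not detectable at this depth.

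The levels of the 9 genes spanned more than 3 orders of magnitude. Expressed as RPKM, the reads per kilobase of exon scaled to library size, which allows genes to be compared per length, the untreated means were 122 for Cxcl12, 62.5 for Csf1, 51.8 for Ccl2, 34.2 for Cxcl1, 22.2 for Ccl7, 4.30 for Lif, 0.592 for Il6, 0.0928 for Cxcl5 and 0.0581 for Il11. All neighbours in this order down to Il6 were separated by more than their spread between libraries, whereas Cxcl5 and Il11 rested on so few counts that their order is not settled. Cxcl12 was above 97.4% of the genes tested in untreated cells, Csf1 above 94.8%, Ccl2 above 93.6% and Il6 above 16.2%. The fibroblasts thus carried abundant RNA for monocyte and macrophage factors and for Cxcl12, and little for Il6.

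With genistein, the RPKM means were 88.9 for Cxcl12, 53.9 for Csf1, 36.4 for Ccl2, 13.6 for Cxcl1 and 19.5 for Ccl7. Cxcl1 moved below Ccl7 in this order. That exchange depended on the length used: Cxcl1 stood at 0.698 times Ccl7 with the length of all exons and at 1.37 times with the length of 1 mRNA, an alternative chosen after seeing the data. Within a library, the ratio of Cxcl1 to Ccl2 in RPKM went from 0.670 and 0.651 to 0.362 and 0.387, and that of Cxcl12 to Cxcl1 from 3.52 and 3.63 to 6.73 and 6.32. Neither ratio overlapped between groups. The size of these 2 ratios depends on the length used as well, but their relative change between groups does not. Per length of 1 mRNA, the untreated means were 67.3 for Cxcl1, 72.5 for Ccl2 and 178 for Cxcl12. The summed RPKM of all 9 genes was 300.0 and 296 in untreated and 215 and 221 in treated libraries. Cxcl12 made up 40.8% and 41.3% of that sum without genistein and 40.6% and 41.0% with it, so that its share stayed within a range of 1 percentage point while the sum was lower.

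**Figure D2:**
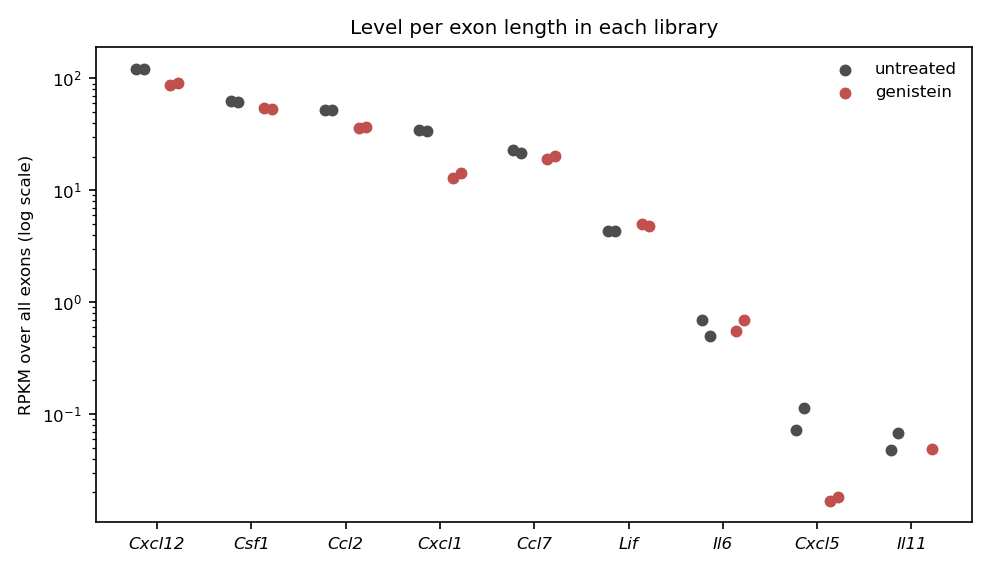
Levels of the 9 genes in RPKM on a log axis, ordered by the untreated mean, with a point for each library and no point for the genistein library with 0 counts of Il11. Mean values run from 122 for Cxcl12 to 0.0581 for Il11 in untreated cells, and the separation of the groups is widest for Cxcl1 among the genes above 1 RPKM.

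The receptors were examined because several of these ligands can act on the cells that make them. Of 14 receptor genes listed, 7 had enough counts, and 4 of these rose, 2 fell and 1 passed in neither direction. Their median log2 fold change was 0.51 against -0.03 for all genes. Among all genes tested, 33.5% rose and 38.2% fell, which is the background for this and each later list. Receptor chains of the interleukin-6 family (Il6ra, Il6st, Osmr, Lifr and Il11ra1) made up most of the 7 tested, and also 3 of the 4 that rose. Il6ra, the chain that binds Il6, had 132 and 140 normalized counts without genistein and 292 and 264 with it. Both treated libraries were well above the untreated ones, with a log2 fold change of 1.04 ± 0.11 (SE; adjusted p = 2.6e-07, edgeR).

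Il6st, the signaling chain shared by Il6, Il11 and Lif, had 5861 and 5946 normalized counts and then 8406 and 8446. Osmr, the receptor chain for oncostatin M, whose gene Osm had 0 counts in every library, had 3706 and 3677 and then 5576 and 5787. Both were higher in every treated library, with log2 fold changes of 0.51 ± 0.04 and 0.62 ± 0.03 (SE; adjusted p = 2.1e-09 and 6.2e-11, edgeR). Lifr, the chain that pairs with Il6st to bind Lif, went the other way, from 6954 and 7110 to 5850 and 5954. Its log2 fold change was -0.25 ± 0.03 (SE; adjusted p = 4.4e-06, edgeR). Il11ra1, the Il11 receptor, had 362 and 356 and then 342 and 314 normalized counts, with a log2 fold change of -0.13 ± 0.08 (SE; adjusted p = 0.18, edgeR).

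Csf1r, the receptor of Csf1 and a gene best known from macrophages, was detected in these cells and rose. It had 125 and 126 normalized counts without genistein and 335 and 356 with it. The treated libraries were more than 2 times the untreated ones, and the log2 fold change was 1.46 ± 0.10 (SE; adjusted p = 1.9e-09, edgeR). An immune and an endothelial marker rose too. Of 10 immune markers, 2 were tested. Cd14 had 70.9 and 80.5 normalized counts without genistein and 68.5 and 84.0 with it, which overlapped (adjusted p = 0.97, edgeR). Cd68 rose from 83.9 and 65.6 to 211 and 213 normalized counts (adjusted p = 5.5e-08, edgeR), and the summed normalized counts of the 10 were 160 and 161 without genistein and 305 and 314 with it. Itgam had 0 and 0 raw counts and then 5 and 4, and Lyz2 had 0 and 2 and then 16 and 6, whereas the defining markers Adgre1, Cd3e and Tyrobp had 0 counts in all libraries and Ptprc had 0 or 1. The endothelial marker Kdr rose as well (1.98 ± 0.23), with a sum over 5 endothelial markers of 26.0 and 33.9 and then 99.4 and 99.2. The part of such cells in the Csf1r difference was not tested.

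Of the chemokine receptors listed, Ackr3 alone had enough counts to be tested. Ackr3, which takes up Cxcl12, had 149 and 167 normalized counts without genistein and 129 and 128 with it, a log2 fold change of -0.30 ± 0.12 (SE; adjusted p = 0.040, edgeR). That call was lost with DESeq2, with scaling by library totals, with TMM factors from genes alone, and without untreated replicate 2 (-0.22, adjusted p = 0.18) or either genistein replicate (-0.30, adjusted p = 0.12 in each). Ccr1 had 4 to 10 raw counts per library, and Ccr2, Ccr3, Cxcr2, Cxcr4, Ackr1 and Ackr2 had 0 to 3. For the ligands Ccl2, Ccl7, Cxcl1 and Cxcl12, the signaling receptors Ccr2, Cxcr2 and Cxcr4 were thus at or near 0 counts in the cells that made the ligand.

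**Figure D3:**
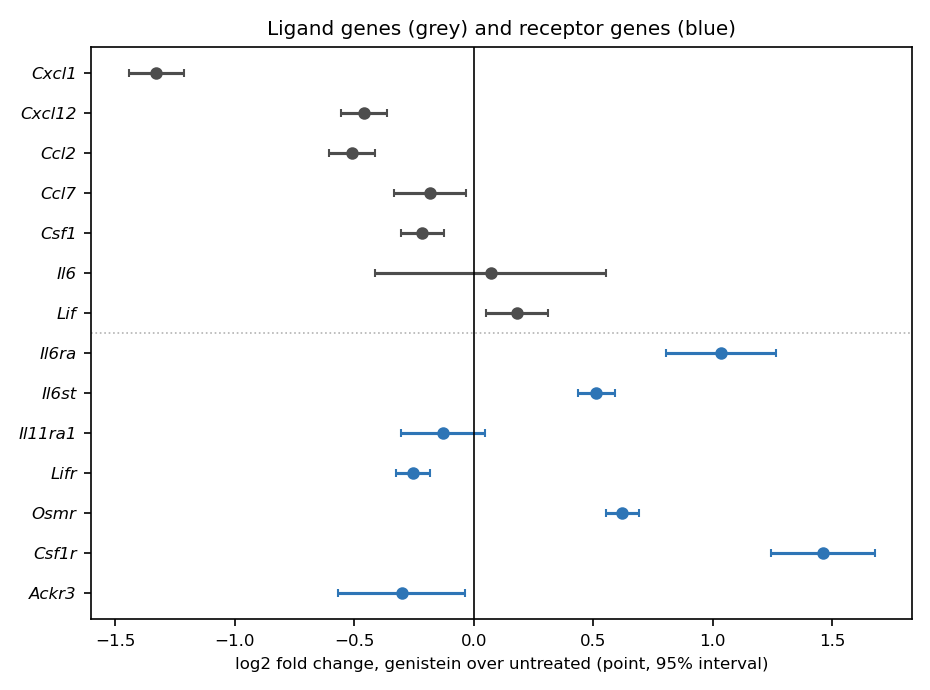
Log2 fold changes (genistein against untreated) of the tested ligands and receptors with 95% intervals, on a linear axis with 0 marked. Cxcl1 lies at -1.33 among the ligands, and Il6ra at 1.04 and Csf1r at 1.46 are the highest of the receptors.

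Genes of the JAK-STAT pathway, which relays signals of the interleukin-6 family, were mostly higher, against 33.5% higher and 38.2% lower among all genes tested. The list counted inhibitors of the pathway, such as Cish, along with the kinases and STAT factors. Of 15 genes of the JAK-STAT pathway, all tested, 9 rose, 2 fell and 4 passed in neither direction (median log2 fold change 0.20). Cish, a feedback inhibitor induced by cytokines, rose by 0.82 ± 0.14 on the log2 scale (SE; adjusted p = 4.8e-05, edgeR). Tyk2 (0.74 ± 0.07), a kinase of the pathway, rose too. Ptpn11, a phosphatase downstream of gp130, and Stat5b fell, by 0.27 and 0.21. Socs3, the main feedback inhibitor of gp130, had 1135 and 1199 normalized counts without genistein and 1146 and 1243 with it, which overlapped.

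Genes of NF-κB, interleukin-1 and TNF signaling moved in both directions, as did genes in general (33.5% higher and 38.2% lower). Of 35 listed, 31 were tested, and 14 rose, 9 fell and 8 passed in neither direction (median 0.07). The genes that rose were led by Tlr4, the receptor for bacterial lipopolysaccharide (1.25 ± 0.06), Rel, an NF-κB subunit (0.94 ± 0.07), and Tnfrsf1b, a TNF receptor (0.72 ± 0.06). Those that fell were led by Il1rl1, the receptor of Il33 (-1.82 ± 0.11), and by Il33 itself, an alarmin of the interleukin-1 family (-0.97 ± 0.05). Tnfaip3, a negative regulator of NF-κB, came next (-0.83 ± 0.06). Each of these 6 differences had an adjusted p of 6.5e-09 or lower in edgeR. Il33 had 2926 and 2689 normalized counts in untreated and 1432 and 1443 in treated libraries, so that both the ligand and its receptor were lower in both treated libraries. Il1a, Il1b and Tnf, the cytokines that switch on Cxcl1 and Il6 in fibroblasts, had 0 to 2 counts per library.

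Of 12 genes of AP-1 and C/EBP factors, 9 rose and 3 fell, and each passed the test (median 0.37). The shares over all genes tested were 33.5% higher and 38.2% lower. DESeq2 called 8 of the 12 higher and 2 lower. Atf3, a stress-induced factor, rose by 1.69 ± 0.12 on the log2 scale, Fos by 1.01 ± 0.09 and Cebpd by 0.77 ± 0.07 (SE; adjusted p of 3.4e-08 or lower, edgeR). Atf3 had 126 and 96.3 normalized counts without genistein and 368 and 350 with it, a wide separation. Fosl1 fell by 0.70 and Cebpg by 0.26.

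Other cytokine and chemokine genes also moved in both directions, beside 33.5% higher and 38.2% lower among all genes tested. Of 50 listed, 31 were under the filter, 11 of them with 0 counts in every library, and of the 19 tested 7 rose, 5 fell and 7 passed in neither direction (median 0.12). Kitl, the stem cell factor, rose from 2358 and 2396 to 4425 and 4797 normalized counts (0.96 ± 0.04), Il18 rose by 0.96 ± 0.10 and Ccl9 by 0.79 ± 0.15. Mif fell from 8101 and 8163 to 4246 and 4306 (-0.93 ± 0.03), the membrane-bound chemokine Cx3cl1 fell by 0.79, and Cntf, another ligand of the gp130 family, by 0.71. The Cntf call was lost with DESeq2 and without genistein replicate 1 (-0.51, adjusted p = 0.093, edgeR). Ctf1, a further gp130 ligand, had 130 and 94.2 normalized counts in untreated and 92.8 and 65.8 in treated libraries, so that the groups nearly met. Its log2 fold change was -0.50 ± 0.19 (SE; adjusted p = 0.026, edgeR). With DESeq2, 4 of these other cytokine genes were higher and 2 lower (Mif and Cx3cl1), so that the Ctf1 call was lost there too.

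Of 15 regulators of mRNA decay, 6 rose and 9 fell (median -0.20), against 33.5% and 38.2% of all genes tested. Zfp36, which binds the AU-rich nonamer and promotes decay, rose from 275 and 265 to 412 and 368 normalized counts (0.53 ± 0.09). Its more abundant paralogs, which share this function, fell: Zfp36l1 went from 1568 and 1781 to 1254 and 1227 (-0.43 ± 0.06) and Zfp36l2 from 5258 and 5266 to 3940 and 3901 (-0.42 ± 0.03). Rc3h2 (0.35 ± 0.03) and Arid5a (0.33 ± 0.08), which act on cytokine mRNAs by decay and by stabilization, rose as well, although Arid5a missed the threshold with DESeq2 (0.30, adjusted p = 0.058). Elavl1, which binds AU-rich elements and stabilizes transcripts, fell from 6067 and 5879 to 3585 and 3710 (-0.71 ± 0.03). Hnrnpd, another AU-rich element binding protein, fell by 0.98 and Tial1 by 0.46. With DESeq2, 3 of the 15 were higher. Cxcl1 and Lif, both with 2 nonamers, moved in opposite directions, although the Lif call was lost under several alternatives. The part of mRNA decay in these differences was not tested.

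Other secreted factors of senescent fibroblasts moved either way, beside 33.5% higher and 38.2% lower among all genes tested. Of 27 genes, 24 were tested, and 12 rose, 8 fell and 4 passed in neither direction (median 0.23). By the study's thresholds, 0 of them were higher and 3 lower, against 3.92% and 4.16% of all genes tested. Spp1, which encodes osteopontin, fell from 7012 and 6865 to 1457 and 1402 normalized counts (-2.28 ± 0.04), and Plaur, the urokinase receptor, fell by 1.13. Vegfa (0.67 ± 0.04), Plat (0.55 ± 0.05) and Igfbp6 (0.54 ± 0.04) rose.

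Of 5 senescence markers, 1 rose, 2 fell and 2 passed in neither direction. Cdkn1a, the p21 cell cycle inhibitor, went from 370 and 360 to 2597 and 2400 normalized counts (2.78 ± 0.06, adjusted p = 9.1e-16, edgeR). Lmnb1, the lamin that is lost in senescent cells, went from 5009 and 4976 to 2730 and 2658 (-0.89 ± 0.03). Cdkn2a, whose transcripts encode p16 and p19, had a slightly lower level (log2 fold change -0.14 ± 0.05, adjusted p = 0.013), which lost its call with library totals (-0.07, adjusted p = 0.21), TMM factors from genes alone, DESeq2, without untreated replicate 1 (-0.09, adjusted p = 0.15) and without genistein replicate 1 (-0.12, adjusted p = 0.081). Cdkn2b (-0.03 ± 0.05, adjusted p = 0.61) and Glb1 (0.03 ± 0.06, adjusted p = 0.68) passed in neither direction.

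**Figure D4:**
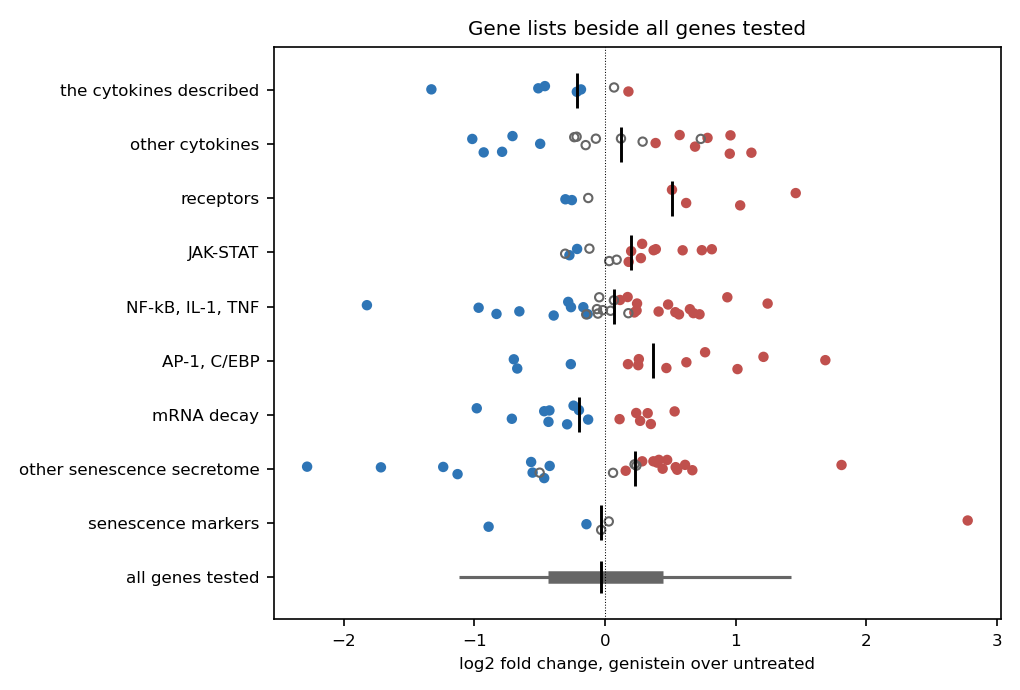
Log2 fold changes of every tested gene in each list, with a point per gene (red higher, blue lower, open neither at an adjusted p under 0.05) and the list's median as a black line. The bottom bar gives all tested genes, with their median of -0.03, the middle 50% as the thick part and the 5th to 95th percentiles as the thin part. The lowest of the cytokines described is Cxcl1 at -1.33, and the AP-1 and C/EBP list has 9 of 12 points above 0 that passed the test.

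Markers of the fibroblasts themselves were lower in part. Of 11 fibroblast markers, 9 were tested, and 2 rose (Fn1 and Dcn) and 7 fell (median -0.24), with summed normalized counts of 432965 and 444698 in untreated and 421861 and 412646 in treated libraries. Thy1 had 0 counts in all libraries and Fap had 1 count over the 4, so these fibroblast markers were at or near 0. The epithelial keratins Krt8 (-1.74 ± 0.10) and Krt18 (-2.76 ± 0.32) fell, and the sum of 5 epithelial markers went from 452 and 462 to 137 and 131, whereas Epcam and Krt5 had 0 counts in all libraries. The part of cell composition in the lower chemokine levels was not tested.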

How the data were processed

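The authors depleted ribosomal RNA, sequenced paired-end reads, aligned them to mm10 with STAR, keeping reads with many alignments, and counted genes and repeat families with TEtranscripts. The deposited table holds these counts, not normalized, for 47937 genes, 1445 repeats and 1 unnamed entry. The unnamed entry (0.00208 to 0.00314% of each library) was left out. The strand option of the counting is not given in the sources used here. Gene IDs were given symbols from the GENCODE annotation (47224 matched). Libraries were grouped by the labels, 2 per group.

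Genes and repeats were fitted together with edgeR 4.0.16 (R 4.3.3): filterByExpr, TMM factors, quasi-likelihood test (two-sided) and Benjamini-Hochberg adjustment, which kept 16240 genes and 1118 repeats. All adjusted p-values are over genes and repeats in this fit. RPKM values were computed from the normalized counts and the union of all exons. An exact permutation test over 2 against 2 libraries cannot go below p = 0.333 and was not used. Counts come from PCR reads without molecular identifiers, so that intervals on summed counts cover counting error only. Total counts of 28591958 to 31464284 per library leave genes of a few counts, such as Il11 and Cxcl5, without a usable error. In a test on simulated data with 17060 entries, 200 were changed, all drawn from above a floor on mean level. The fit recovered 100 of 100 changed genes at 2-fold and 100 of 100 at 4-fold and called 25 unchanged ones. In the data, by contrast, 71.7% of the genes tested passed. Changes under 2-fold, such as those of Ccl7 and Lif, and changes in genes as low as Il6 were not simulated.

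The 9 genes and the 12 comparison lists were chosen with earlier results of these data known. Named were all 9 genes, all receptors, all senescence markers and, in each other pathway list, up to 3 genes in each direction with the largest log2 fold change among those with an adjusted p under 0.05, groups that did not overlap and a mean normalized count over 50. Socs3, Ctf1, Zfp36l1, Zfp36l2, the neighbouring chemokine genes and the marker genes of other cell types were named outside this rule, and some genes that it names are not reported here. Alternatives were RLE factors, library totals, TMM factors from genes alone, no filter, DESeq2 1.42.0, the replicate number as a block, each library left out in turn, other thresholds on fold and mean count, and, chosen after seeing the data, another gene length.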

Additional observations from a re-analysis of the deposited data

How the results depend on the processing

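Cxcl1 (log2 fold change -1.40 to -1.25), Ccl2 (-0.54 to -0.44), Cxcl12 (-0.49 to -0.39) and Csf1 (-0.24 to -0.15) kept their direction and their call under every alternative run. Ccl7 (-0.23 to -0.11) and Lif (0.15 to 0.25) kept their direction but not always their call. Il6, not called in any, ran from -0.15 to 0.33 when single libraries were left out and was -0.15 and -0.10 without untreated or genistein replicate 2. The count of the 9 genes called higher went from 1 to 0 without a filter on low counts and with DESeq2, and was 0 to 1 with single libraries left out. Receptors called lower went from 2 to 1, and senescence markers called lower from 2 to 1, with library totals, with TMM factors from genes alone and with DESeq2, and both were 1 to 2 with single libraries left out. With DESeq2, the other cytokines had 4 higher and 2 lower in place of 7 and 5, and the mRNA decay genes 3 higher in place of 6. The cause was not tested. The level of Cxcl1 over Ccl7 with genistein was 1.37 with the length of 1 mRNA in place of 0.698. The median log2 fold change of all genes was -0.03 with TMM, 0.04 with library totals, 0.01 with TMM factors from genes alone and -0.04 with RLE factors. Replicate numbers are shared by the groups. Over the tested genes and repeats together, the deviations of same-numbered libraries had a correlation of -0.03. A shared batch that touched a part of the genes could not be seen this way. Whether same-numbered libraries were handled together is not known. With the replicate block, 5 of the 9 genes were lower and 1 higher, as without it, and the log2 fold change of Cxcl1 was -1.33. Depth limits what can be said of Il11, Cxcl5 and the rare receptors. With 2 libraries per group no library could be tested as standing apart.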
